A study of Mus musculus with 7 samples.

Results

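The regions described here are 359 peaks of chromatin immunoprecipitation sequencing (ChIP-seq) for the chromatin remodeller Chd7 in cerebellar granule neuron progenitors (GNPs) that carried no peak of H3K27ac, the acetylation of histone H3 at lysine 27. They were chosen by the absence of overlap, at 1 bp or more, with any H3K27ac peak of WT GNPs and with any Chd7 peak of *Chd7*-deficient GNPs. They are 359 of the 1900 WT Chd7 peaks on chromosomes 1 to 19 and X (18.9%, 95% Wilson interval 17.2 to 20.7%). Of the other peaks there, 1510 overlapped an H3K27ac peak and had no peak in *Chd7*-deficient GNPs, and these are called acetylated Chd7 peaks below. The remaining 31 were shared with *Chd7*-deficient GNPs, and 30 of those also lacked H3K27ac, so that 20.5% of all these WT Chd7 peaks had none.
The WT GNPs were freshly isolated from the cerebellum of C57BL/6 mice (substrain C57BL/6N by the study's methods) at postnatal day 7 (P7). *Chd7*-deficient GNPs came from Atoh1-Cre::Chd7 f/f mice of the same age, in which the Atoh1 promoter drives Cre in the granule lineage, so that cells of the preparation without Cre keep Chd7. Top2b, a topoisomerase, was mapped in cerebellar granule neurons (CGNs), which are GNPs cultured for 48 h without SHH, from WT and from *Chd7*-deficient mice. Each condition is 1 library, so all intervals run over peaks of single libraries and cover counting error only, not the variation between animals. Of 35 granule lineage genes, 29 had H3K27ac within 1 kb of a start site, and so did 1 of 5 genes marking Purkinje cells, 3 of 5 for Bergmann glia and astrocytes, 2 of 3 for interneurons, 2 of 5 for the oligodendrocyte lineage, 1 of 5 for microglia and 1 of 4 for endothelium. Over all protein-coding genes on chromosomes 1 to 19 and X, the share with H3K27ac within 1 kb of a start site was 46.9%. The part that other cells played in the peaks was not tested.

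Chd7 is an ATP-dependent remodeller of the CHD family that slides nucleosomes and is most often found at enhancers and promoters. H3K27ac marks active promoters and enhancers, whereas a DNA element without it may be inactive, poised, or acting in a way that does not use the mark. Top2b cuts and religates both strands of DNA to relieve torsional stress and is the topoisomerase II form of postmitotic neurons.

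The strongest members away from annotated start sites are shown first. The lines give 200 bp centred on the summit of the 5 members with the highest −log10 q-value whose summit was more than 1 kb from a start site and that met none of the crowding, background and repeat criteria defined further on. The sequence is that of GRCm38 (mm10), plus strand, in lower case, and capitals mark the half-site of nuclear factor I (NFI; TTGGCA or its reverse complement TGCCAA) and the E-box CAGATG (or CATCTG) or CAGCTG, the form bound by basic helix-loop-helix factors.
Grm7 downstream, chr6:111866237-111866436: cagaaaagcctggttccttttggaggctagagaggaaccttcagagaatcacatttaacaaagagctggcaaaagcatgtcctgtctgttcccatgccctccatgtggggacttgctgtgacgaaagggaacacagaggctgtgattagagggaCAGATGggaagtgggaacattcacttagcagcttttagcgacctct
Epha6 intron, chr16:60102262-60102461: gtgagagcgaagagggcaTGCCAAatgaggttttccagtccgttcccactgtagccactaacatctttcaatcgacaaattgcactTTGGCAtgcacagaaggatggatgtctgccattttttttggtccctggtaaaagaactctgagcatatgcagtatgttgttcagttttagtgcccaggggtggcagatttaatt
Slc7a11 intron, chr3:50014482-50014681: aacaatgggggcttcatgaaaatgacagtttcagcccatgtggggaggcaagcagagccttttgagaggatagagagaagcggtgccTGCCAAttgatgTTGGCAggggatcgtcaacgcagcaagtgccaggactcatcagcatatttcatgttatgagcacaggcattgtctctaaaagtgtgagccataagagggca
Gm10110 exon, chr14:89896987-89897186: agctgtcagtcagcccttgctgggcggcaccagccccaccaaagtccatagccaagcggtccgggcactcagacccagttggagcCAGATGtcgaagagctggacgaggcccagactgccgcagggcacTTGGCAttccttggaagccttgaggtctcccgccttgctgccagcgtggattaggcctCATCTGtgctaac
Dab1 intron, chr4:103922573-103922772: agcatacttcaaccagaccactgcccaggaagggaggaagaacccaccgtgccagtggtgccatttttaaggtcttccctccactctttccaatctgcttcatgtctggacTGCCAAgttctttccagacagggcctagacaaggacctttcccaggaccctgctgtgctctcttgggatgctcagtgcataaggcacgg
Of these 5 windows, 4 held an NFI half-site and 2 held the E-box CAGATG. Over all 267 members away from start sites the shares were 29.2% for the NFI half-site and 28.1% for CAGATG. In the window within the intron of Slc7a11, which encodes the cystine-glutamate antiporter, both half-sites lay in opposite orientation, a few bases apart.

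The next lines show, in the same way, the 2 members with the highest −log10 q-value that lay in an intron of a protein-coding gene away from start sites and overlapped a Top2b peak of WT CGNs, since they join both binding maps.
Kalrn intron, chr16:34322779-34322978: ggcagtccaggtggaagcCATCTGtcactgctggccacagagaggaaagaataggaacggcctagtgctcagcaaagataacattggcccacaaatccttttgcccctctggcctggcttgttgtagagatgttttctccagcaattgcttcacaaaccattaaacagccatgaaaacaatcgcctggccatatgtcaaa
Csmd1 intron, chr8:17465763-17465962: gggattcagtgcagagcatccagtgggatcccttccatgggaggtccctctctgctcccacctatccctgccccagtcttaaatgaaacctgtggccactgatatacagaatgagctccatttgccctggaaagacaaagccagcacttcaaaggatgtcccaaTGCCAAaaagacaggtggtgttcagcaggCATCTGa
The last of the intronic examples is the member within the Chd7 gene itself, which held none of the 3 motifs.
Chd7 intron, chr4:8759711-8759910: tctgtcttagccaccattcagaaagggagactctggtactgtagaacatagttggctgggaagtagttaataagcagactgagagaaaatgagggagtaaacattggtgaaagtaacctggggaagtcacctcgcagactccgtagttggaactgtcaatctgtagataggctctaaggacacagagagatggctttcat
For contrast, 3 members within 1 kb of a protein-coding start site are given with each CpG dinucleotide in capitals. Otp, Cebpa and Bmp2 were chosen after their values were seen, as developmental genes with dense CpGs.
Otp, chr13:94883229-94883428: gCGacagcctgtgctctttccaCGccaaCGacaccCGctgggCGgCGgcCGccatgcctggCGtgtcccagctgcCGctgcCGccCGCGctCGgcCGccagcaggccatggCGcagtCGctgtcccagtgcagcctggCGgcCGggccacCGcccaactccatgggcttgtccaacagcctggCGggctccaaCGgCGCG
Cebpa, chr7:35119012-35119211: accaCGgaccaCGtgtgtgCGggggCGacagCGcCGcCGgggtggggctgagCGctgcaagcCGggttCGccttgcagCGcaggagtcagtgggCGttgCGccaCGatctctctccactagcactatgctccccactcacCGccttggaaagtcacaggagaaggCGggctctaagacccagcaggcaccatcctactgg
Bmp2, chr2:133552258-133552457: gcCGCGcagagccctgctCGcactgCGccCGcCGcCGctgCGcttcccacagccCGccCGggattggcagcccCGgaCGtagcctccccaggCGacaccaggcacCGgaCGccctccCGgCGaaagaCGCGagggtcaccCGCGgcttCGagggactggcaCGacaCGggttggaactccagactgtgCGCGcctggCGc
These windows, picked for dense CpGs, held 23, 16 and 27 CpG dinucleotides, compared with 0 to 8 in the intronic and distal windows above. The contrast between these windows thus followed from the choice.

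Members had strengths close to those of acetylated Chd7 peaks. The median fold enrichment over the local background, as macs2 computes it, was 4.12 in members (quartiles 3.7 and 4.64, range 1.43 to 7.77) and 4.04 in acetylated peaks (quartiles 3.59 and 4.63, range 2.33 to 13.7). The median fragment pileup at the summit was 20 in members and 21 in acetylated peaks, and the median −log10 q-value was 4.22 and 4.34. A −log10 q-value of at least 5 was reached by 135 members (37.6%) and 586 acetylated peaks (38.8%). Members were narrower, with a median width of 382 bp against 427 bp. Since the members had to be called as Chd7 peaks, these values are given as a description.

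The distance from a member to the nearest H3K27ac peak had a median of 76.7 kb (quartiles 21.8 and 176 kb) and ran from 0.001 to 2356 kb. Of the members, 34 lay within 1 kb of H3K27ac, 25 from 1 to 10 kb, 144 from 10 to 100 kb and 156 farther than 100 kb. Most members were thus remote from the mark rather than at the rim of an acetylated region, and none had H3K27ac within 1 kb on both sides. Only 5 lay in a gap between H3K27ac peaks that would be stitched into 1 region of the kind from which SEs are called. Strength showed no steady order with distance, since the median fold enrichment was 4.13 within 1 kb, 3.89 from 1 to 10 kb, 4.12 from 10 to 100 kb and 4.15 beyond. The H3K27ac peaks beside the 34 closest members were weaker than those under acetylated Chd7 peaks, with a median H3K27ac fold enrichment of 3.96, compared with 4.35 over all H3K27ac peaks and 11.3 for those at acetylated Chd7 peaks.

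**Figure D1:**
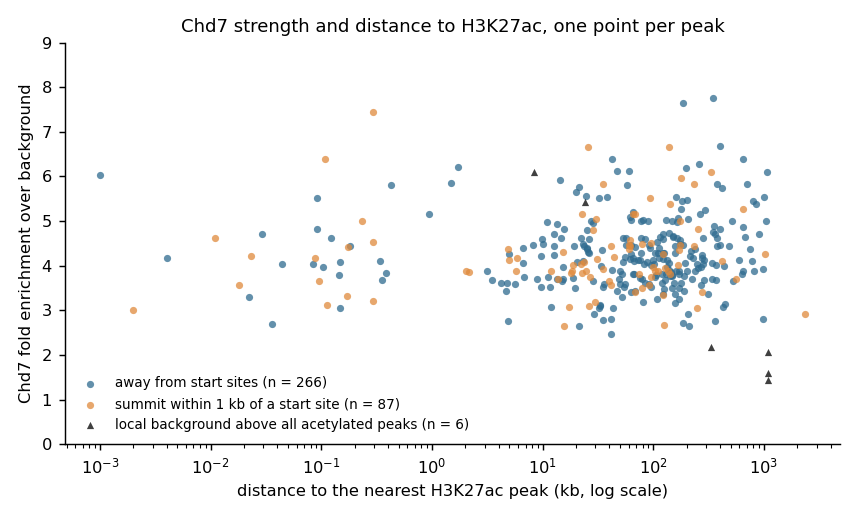
Chd7 fold enrichment of each of the 359 members (vertical axis) against the distance to the nearest H3K27ac peak in kb (horizontal axis, log scale), with members within 1 kb of a start site in orange and 6 members of high local background as black triangles. Fold enrichment sits between 2.48 and 7.77 for nearly all members at every distance, and 3 triangles lie below 2.5 at over 1000 kb.

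The rule depends on single base pairs at its edge. The members nearest to H3K27ac were chr11:18115593-18116161 between genes (1 bp away, fold enrichment 6.03), the start of Grk4 (2 bp, 3.0), chr17:6477129-6477432 in an intron of the non-coding gene Gm26848 (4 bp, 4.16), chr3:34664242-34664595 in an intron of Sox2ot (11 bp, 4.63) and the start of Cep290 (18 bp, 3.56). The acetylated peaks just outside the rule were chr6:14679746-14680161, 75.2 kb from the start of Ppp1r3a (1 bp of overlap, fold enrichment 4.72), chr1:82243381-82243693 in an intron (2 bp, 3.53), the start of Ntmt1 (4 bp, 3.53), chr13:111725125-111725586 (6 bp, 3.61) and the start of Hes6 (8 bp, 4.02). Fold enrichments thus ran from 3.0 to 6.03 just inside the rule and from 3.53 to 4.72 just outside it. At the other end, the farthest members were a peak on chromosome X in the processed pseudogene Gm2231 (2356 kb from H3K27ac, fold enrichment 2.91), a group of 3 on chromosome 17 described below (1086 to 1089 kb), and chr5:47317413-47317902, which lay 665 kb upstream of the start of Slit2, an axon guidance ligand, and had a fold enrichment of 6.11 at 1054 kb from H3K27ac.

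The members lay at start sites less often than acetylated Chd7 peaks. The rule fixes part of this gap, since it removes peaks at H3K27ac, which is frequent at start sites, and the size of that part was not tested. Of the members, 92 (25.6%, 95% Wilson interval 21.4 to 30.4%) had the summit within 1 kb of an annotated start site, against 838 acetylated peaks (55.5%) and 49.4% of all 1900 WT Chd7 peaks. The difference between acetylated peaks and members was 29.9 percentage points (95% Newcombe interval 24.5 to 34.8), and it was 30.7, 33.4 and 24.9 when the peaks were split into 3 groups of rising fold enrichment, each with an interval above 0. For protein-coding start sites the members' count was 64 (17.8%) and that of acetylated peaks 761 (50.4%). The summit lay in a gene in 193 members (53.8%) and in 65.8% of acetylated peaks, a difference of 12.1 points (6.43 to 17.7). This difference was 0.537 points at start sites (−7.76 to 10.7) and 7.28 away from them (0.195 to 14.3). In the 3 groups of rising fold enrichment it was 13.7 (3.5 to 24.1), 15.7 (6.2 to 25.2) and 6.78 points (−2.6 to 16.3), so the interval of the highest group held 0. By position, 166 members were outside genes, 129 in introns, 21 in coding exons and 43 in other exons.

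Fewer genes near members than near acetylated peaks carried the mark at their own start. The protein-coding gene with the closest start site had H3K27ac within 1 kb of a start site for 139 members (38.7%, 33.8 to 43.9%), against 1324 acetylated peaks (87.7%) and 46.9% of all protein-coding genes on these chromosomes. The rule fixes part of this, since members lie off H3K27ac, most directly at start sites. Away from start sites the shares were 40.4% of 267 members and 74.6% of 672 acetylated peaks, a difference of 34.1 points (27.2 to 40.6). Among members the share fell with distance from H3K27ac, from 28 of 34 within 1 kb to 36 of 156 beyond 100 kb, which the distance partly fixes.

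**Figure D2:**
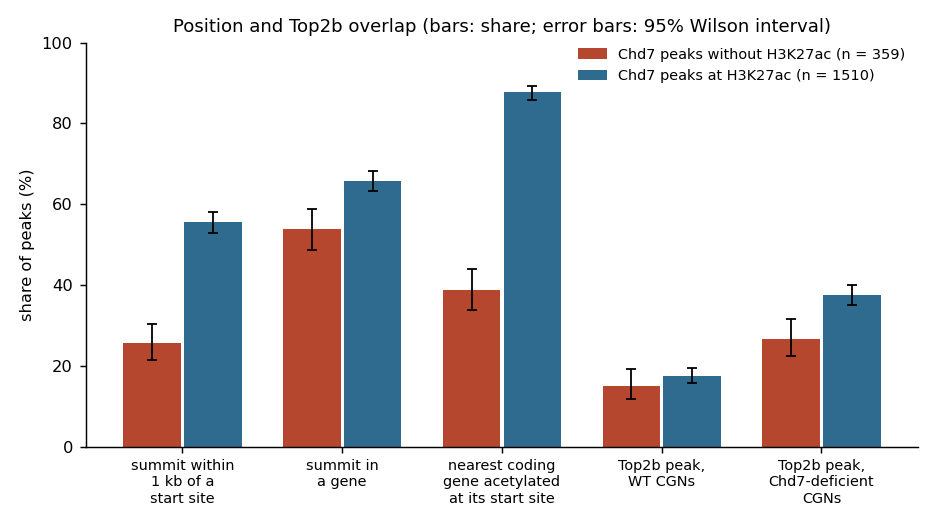
Share of peaks in % (vertical axis) with each of 5 properties (horizontal axis) for the 359 members in red and the 1510 acetylated Chd7 peaks in blue, with 95% Wilson intervals as error bars. Members are lower for start sites (25.6% against 55.5%) and for acetylation of the nearest gene (38.7% against 87.7%), while the intervals overlap for Top2b of WT CGNs.

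At protein-coding start sites, 48 of the 64 members lay at a gene whose start sites all lacked H3K27ac within 1 kb. They included developmental regulators, some of them best known from other tissues or stages. Otp, a homeodomain factor of the hypothalamus, had 24 fragments piled up at the summit, a 5.53-fold enrichment and H3K27ac no closer than 92.6 kb. Cebpa, a regulator of myeloid cells, fat and liver, had a pileup of 21, a fold enrichment of 4.59 and H3K27ac 62.2 kb away, and its relative Cebpd had values of 17, 4.07 and 23.5 kb. Bmp2, a secreted growth factor, had a pileup of 18, a fold enrichment of 3.7 and H3K27ac 562 kb away.
The homeobox gene Gsx1 had a fold enrichment of 3.50, the forkhead gene Foxd2 3.56, Tfap2c 3.87, Klf5 4.27 and Atf3 3.66. Rest, the repressor of neuronal genes outside neurons, had a fold enrichment of 4.32, Hes1, a Notch target, 3.05, and Lin28b, which blocks let-7 maturation, 3.56. These regulators were picked from the 64 after their values were seen, and their fold enrichments, from 3.05 to 5.53, lay within the range of the other members. How often acetylated peaks at start sites lay at such regulators was not counted.

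The members with the highest −log10 q-value at protein-coding start sites, 10 and 1 tied with the last, were at Fcgr3 (fold enrichment 6.66), Disp3 (5.17), Garem1 (5.97), Otp, Ccdc192 (4.80), Rimbp2 (5.39), Acoxl (5.17), Cavin1 (5.05), Stox1 (5.17), and the tied Stxbp6 and H2-Q7 (4.48 both). Of these, Rimbp2 organises presynaptic release sites, Cavin1 is needed for caveolae and H2-Q7 is a class I histocompatibility gene. The Fcgr3 peak also lay within 500 bp of tRNA genes. Of the 64 members, 16 had H3K27ac within 1 kb of a start site of the same gene, without touching it or at another of its start sites. Those included Ccnd3, a D-type cyclin (H3K27ac 0.112 kb away, fold enrichment 3.11), Foxp4 (0.176 kb, 4.41) and H2afj (0.023 kb, 4.23).
A further 28 members lay within 1 kb of the start of a non-coding RNA or pseudogene only. Among them were the U3 RNA genes Rnu3b3 and Rnu3b4 inside Tex14, with fold enrichments of 6.38 and 7.45 and H3K27ac at 0.109 and 0.293 kb.

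Base composition split the members in the same way as acetylated peaks. Members at start sites had a mean GC of 63.1% ± 10.2 (SD, n = 92 peaks) and a median ratio of observed to expected CpG of 0.80, compared with 65.8% ± 8.98 (SD, n = 838 peaks) and 0.86 for acetylated peaks at start sites. Away from start sites the mean GC was 49.9% ± 6.79 (SD, n = 267 peaks) and the CpG ratio 0.21, compared with 49.9% ± 6.88 (SD, n = 672 peaks) and 0.23. Over all members the mean GC was 53.3%, lower than the 58.7% of acetylated peaks, and 41.8% in 25594 windows placed every 100 kb along the genome. A CpG ratio of at least 0.6 was found in 51 of the 64 members at protein-coding start sites (79.7%), in 89.1% of acetylated peaks there, and in 17 of the 267 members away from start sites.

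**Figure D3:**
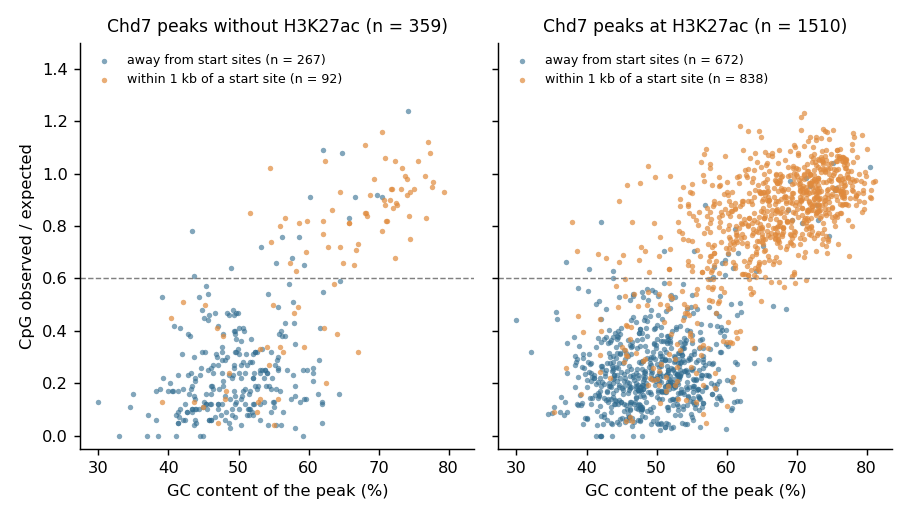
Ratio of observed to expected CpG (vertical axis) against GC content in % (horizontal axis) for each member (left) and each acetylated Chd7 peak (right), with peaks within 1 kb of a start site in orange and the others in blue, and a dashed line at 0.6. Both panels show 1 cloud of low CpG near 50% GC and 1 of high CpG above 60% GC, and the second cloud holds fewer of the members.

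Motifs were searched on both strands in the 200 bp at the summit. The NFI half-site TTGGCA occurred in 29.2% of members away from start sites (78 of 267, 24.1 to 34.9%) and in 30.4% of acetylated peaks there (difference 1.14 points, −5.49 to 7.4). It occurred in 11.9% of 18459 H3K27ac peaks without Chd7 away from start sites, 17.3 points below the members (12.1 to 23), and in 9.92% of the genome windows. NFI proteins regulate late steps of granule neuron development. Mean GC in the compared H3K27ac windows was 48.4%, near that of the members, whereas the genome windows had less GC. For every motif, the windows of H3K27ac peaks were centred on H3K27ac summits and those of members on Chd7 summits. H3K27ac peaks were wider, with a median of 646 bp over all of them against 382 bp for members. The effect of this unlike placement on the motif shares was not tested.
The E-box CAGATG, the form bound by Atoh1 and NeuroD factors, was less frequent in members than in acetylated peaks. It occurred in 28.1% of members away from start sites and in 42.4% of acetylated peaks there, a difference of 14.3 points (7.56 to 20.6). Its share was 19.2% in H3K27ac peaks without Chd7 and 15.1% in genome windows, so members lay between (8.94 points above the former, 3.86 to 14.6). The E-box CAGCTG followed the same order, with 20.6% of members, 28.3% of acetylated peaks, 13.4% of H3K27ac peaks without Chd7 and 7.31% of genome windows.
An NFI half-site together with either E-box was present in 13.1% of members away from start sites, 17.7% of acetylated peaks and 2.28% of genome windows, and 39.3%, 25% and 71.1% of them had neither. Within members away from start sites the NFI share was 40% within 1 kb of H3K27ac (8 of 20), 22.2% from 1 to 10 kb (4 of 18), 24.3% from 10 to 100 kb (25 of 103) and 32.5% beyond 100 kb (41 of 126), with overlapping intervals.
At start sites the order did not hold, since CAGATG was in 13% of members and 9.07% of acetylated peaks (difference −3.97 points, −12.5 to 1.85) and the NFI half-site in 12% and 7.52% (−4.44, −12.8 to 1.08).
The ZIC word CCTGCTG was in 9.36% of members away from start sites, 13.4% of acetylated peaks and 3.84% of genome windows. At start sites it was in 15.2% of members (14 of 92) and 6.92% of acetylated peaks (acetylated minus members −8.3 points, −17.1 to −2.06). In windows of 300 bp the ZIC word was there in 16.3% of members (10.1 to 25.2%) and 10.6% of acetylated peaks (8.71 to 12.9%). Those intervals overlapped, so the difference at start sites depended on the window. Away from start sites the RFX half-site GTTGCCNNG was in 5.24% of members and 4.91% of acetylated peaks, with 1.47% of genome windows. The TEAD word GGAATG was in 10.9% of members and 6.7% of acetylated peaks away from start sites, with 10.8% of genome windows. Over all 359 members, all acetylated peaks and the genome windows, the SOX word ACAATG was in 7.24%, 6.49% and 12.1%, and the AP-1 word TGANTCA in 5.29%, 3.51% and 5.84%. The CTCF core was in 1.11%, 1.19% and 0.145%, the MEF2 word CTATTTTTA in 0.557%, 0.199% and 0.481%, and the ETS word CCGGAAG in 1.95%, 4.11% and 0.563%. The YY1 word AAGATGGCG was in 0.279%, 0.927% and 0.184%, and the NRF1 word GCATGCGC in 0.279%, 0.861% and 0.188%. The CRE word TGACGTCA was in 0 of 359 members, where a count of 0 allows a share of up to 0.836%. It was in 1.26% of acetylated peaks and in 0.117% of genome windows. These ETS, YY1, NRF1 and CRE shares pool peaks at and away from start sites. At start sites ETS was in 5.43% of members and 6.68% of acetylated peaks, YY1 in 1.09% and 1.55%, and NRF1 in 1.09% and 1.43%. CRE was there in 0 of 92 members and 1.91% of acetylated peaks (difference 1.91 points, −2.16 to 3.08). Away from start sites ETS was in 0.749% and 0.893%. Each of these differences had an interval that held 0. The REST element was in 0 of 359 members, 0 of 1510 acetylated peaks and 0.0156% of genome windows. A match is a run of letters and not a measured binding site.

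**Figure D4:**
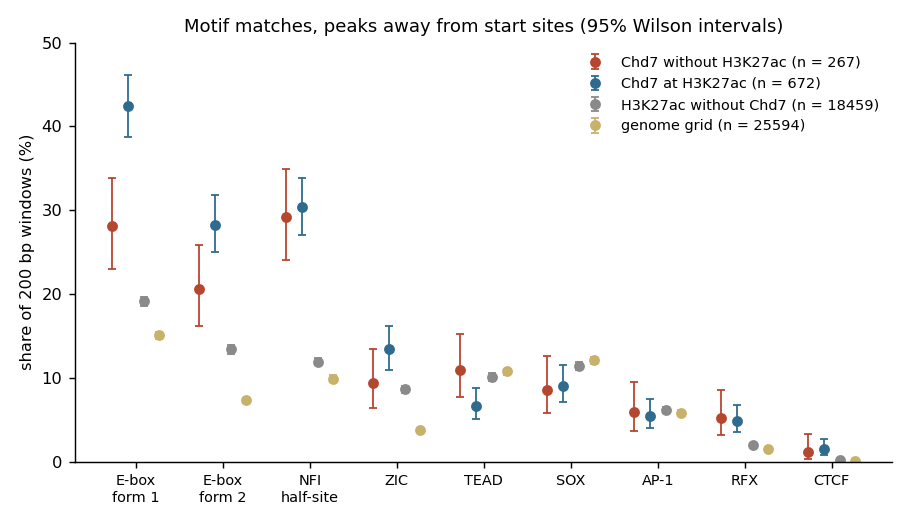
Share of 200 bp windows in % (vertical axis) that hold each of 9 motifs (horizontal axis; E-box form 1 is CAGATG and form 2 is CAGCTG), with 95% Wilson intervals, for members, acetylated Chd7 peaks and H3K27ac peaks without Chd7, all away from start sites, and for the genome windows. Members have a share close to that of acetylated Chd7 peaks for the NFI half-site (29.2% and 30.4%) and fall below them for CAGATG (28.1% and 42.4%).

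Top2b of WT CGNs overlapped 54 members (15%, 95% Wilson interval 11.7 to 19.1%), against 16.9% of all WT Chd7 peaks and 17.5% of acetylated peaks. The difference between acetylated peaks and members was 2.51 points (−1.95 to 6.39), with an interval that held 0. With each Top2b peak extended by 500 bp on either side it was 6.69 points (1.93 to 10.9), which excludes 0, so the call depends on how near Top2b had to be. Away from start sites it overlapped 13.9% of members (10.2 to 18.5%), 16.8% of acetylated peaks and 6% of whole H3K27ac peaks without Chd7 (5.67 to 6.35%). In genome windows of 382 bp, the members' median width, the share was 0.531%. In *Chd7*-deficient CGNs a Top2b peak overlapped 96 members (26.7%, 22.4 to 31.5%), against 35% of all WT Chd7 peaks and 37.5% of acetylated peaks. Here acetylated peaks were 10.8 points higher (5.43 to 15.8). In 3 groups of rising fold enrichment the difference was 6.79 (−3.64 to 16.2), 14.3 (5.43 to 21.9) and 9.87 points (0.718 to 18), so the interval of the lowest group held 0. Over all groups the difference was 15.1 points at start sites (4.83 to 23.5) and 7.03 away from them (0.401 to 13.2). It was 6.59 points (1.41 to 11.3) in windows of 200 bp at the summit, which remove the difference in peak width.
The *Chd7*-deficient library had more Top2b peaks in all (21505 against 17030), of 400 bp against 396 bp, and the depth of the Top2b libraries is unknown. Both maps are of single cultures, so a change between the genotypes was not tested. Of the members, 28 had a Top2b peak in both libraries (7.8%, and 10.2% of acetylated peaks), 26 in WT only (7.24% and 7.35%), 68 in *Chd7*-deficient CGNs only (18.9% and 27.4%) and 237 in neither (66% and 55.1%). The members' share with Top2b in *Chd7*-deficient CGNs only was thus not above that of acetylated peaks.

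The Top2b members with the highest −log10 q-value lay mostly in introns and between genes. Kalrn, a guanine exchange factor that shapes dendritic spines, had a member 38.9 kb into the gene with a pileup of 35 and a fold enrichment of 4.99, with Top2b in WT CGNs only. Csmd1, a large transmembrane complement regulator, had a member with a pileup of 26, a fold enrichment of 6.20 and Top2b in both genotypes. The next were in introns of the non-coding genes Gm48854 (fold enrichment 5.82) and 4933440M02Rik (4.54), then chr11:22698238-22698946 between genes (4.31), chr3:66746730-66747217, 232 kb from the start of Shox2 (4.75), Otp (5.53), chr15:18052683-18053104, in the wide gap before Cdh10 (4.65), an intron of Srsf4 (5.77) and chr11:24980006-24980572 between genes (5.39). Top2b was present in both genotypes at 5 of these 10 and in WT CGNs only at the others.
Across distances to H3K27ac, Top2b of WT CGNs overlapped 17.6% of members within 1 kb (6 of 34), 4% from 1 to 10 kb (1 of 25), 17.4% from 10 to 100 kb (25 of 144) and 14.1% beyond 100 kb (22 of 156). Top2b overlap thus showed no steady order with distance from the mark, and all 4 intervals overlapped.

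**Figure D5:**
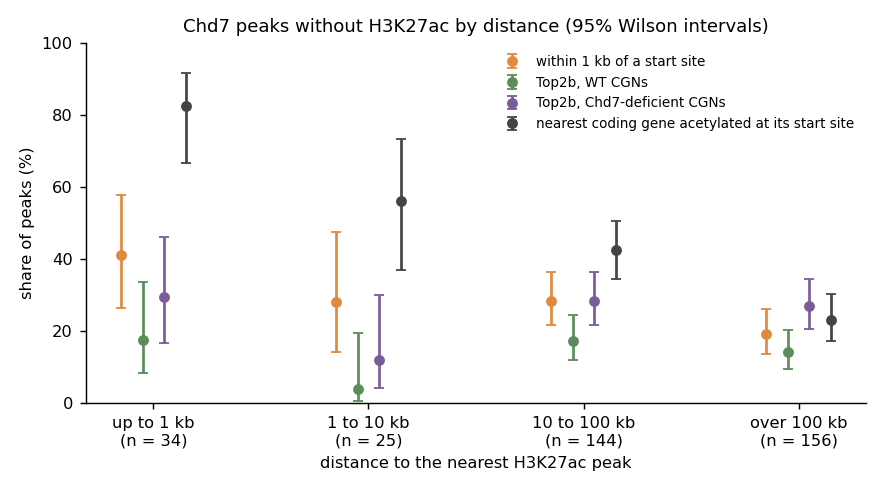
Share of members in % (vertical axis) in 4 ranges of distance to the nearest H3K27ac peak (horizontal axis) that lie within 1 kb of a start site, overlap Top2b of either genotype, or have a nearest protein-coding gene acetylated at its start, with 95% Wilson intervals. Acetylation of the nearest gene drops from 82.4% to 23.1%, whereas Top2b of WT CGNs is at 17.6%, 4%, 17.4% and 14.1%.

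The strongest members apart from those of high local background lay in introns or outside protein-coding genes. The member downstream of Grm7, a metabotropic glutamate receptor gene, lay outside the gene at 371 kb from its closest start site and had a pileup of 38 and a fold enrichment of 6.69, with H3K27ac 399 kb away. In Epha6, an Eph receptor of axon guidance, 2 members lay in introns, with pileups of 33 and 18 and fold enrichments of 7.64 and 3.26. The members in Slc7a11 and in Dab1, an adaptor of reelin signalling, had pileups of 40 and 33 and fold enrichments of 6.29 and 5.83. The strong member at each of these 4 loci overlapped a Top2b peak in *Chd7*-deficient CGNs and none in WT CGNs. That class held 18.9% of all members and 27.4% of acetylated peaks. These 4 were among the 5 members shown first. Over all members, the share with Top2b of *Chd7*-deficient CGNs was 34%, 20.8% and 26.7% in 3 groups of rising fold enrichment. The member with the highest fold enrichment of all, 7.77 at a pileup of 27, lay in an exon of Gm10110, a transcribed processed pseudogene, and overlapped Top2b in neither genotype. Of the other members with high −log10 q-values, chr16:86694522-86694940 and chr6:47747771-47748756 lay outside genes, each with a pileup of 35 and a fold enrichment of 5.52.

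By gene list, members were few at any gene set. A member counted as at a gene when its summit lay in the gene or when the nearest protein-coding start site, at 50 kb or less, was that gene's, which held for 243 members (67.7%) and 1244 acetylated peaks (82.4%). At the 35 granule lineage genes lay 0 of 359 members, where a count of 0 allows a share of up to 0.836%, and 18 of 1510 acetylated peaks (1.19%). At 17 genes that the study names for Chd7 lay 1 member (0.279%), in Chd7 itself, and 19 acetylated peaks (1.26%). Since 29 of the 35 and all of the 17 had H3K27ac at a start site, the rule itself removes peaks there. That peak, chr4:8759630-8759933, lay in an intron 8.37 kb past the start site with a pileup of 13, a fold enrichment of 3.76 and H3K27ac 6.82 kb away. In the study's own list of genes lower without Chd7, of which 132 were matched and which was chosen on its own samples and so is no independent evidence, 7 members (1.95%) were at 5 genes, compared with 47 acetylated peaks (3.11%) at 34 genes. The 5 genes were Tex14, Dach1 (fold enrichment 6.12), Epha6, H2-Q7 and Pcsk5 (4.1).
Ion channel and neurotransmitter receptor genes had 8 members (2.23%) and 21 acetylated peaks (1.39%), and 26.8% of the 220 genes had H3K27ac at a start site. The members were in Kcnj9 (fold enrichment 3.6), a G protein-gated potassium channel subunit, Gria1 (3.14), an AMPA receptor subunit, Kcnk13 (3.7), Grm7 (3.37, with Top2b in both genotypes), Grin2d (3.87), an NMDA receptor subunit, and Grm5 (4.04), near Kcna10 (2.66, with Top2b in WT), and at the start of the serotonin receptor gene Htr6 (4.17). Axon guidance and adhesion genes had 7 members (1.95%) and 21 acetylated peaks (1.39%). Those were in Epha6, Slit1 (4.14), Cdh23 (3.43), Cdhr3 (3.72), Nrg3 (4.06) and Cdh13 (4.4).
Homeodomain and other developmental factors had 6 members (1.67%) and 11 acetylated peaks (0.728%), with H3K27ac at the start of 22.4% of 210 genes. They were at Foxd2, which had 2 (3.56 and 4.04), Foxp4, Foxc2 (2.76), Nkx2-6 (4.72) and Sox2 (4.63). Members at the starts of Otp, Gsx1, Cebpa, Klf5 and Tfap2c, described above, were not among these 6. The list thus does not count every developmental factor with a member. The Sox2 member lay 14 kb from the start of this neural progenitor factor, which had no H3K27ac there, and overlapped Top2b in WT CGNs. Microglia had 1 member, at the start of Tmem119 (3.75), and endothelium 1, near Cldn5 (4.06), while lists for Purkinje cells, Bergmann glia and astrocytes, interneurons, the oligodendrocyte lineage, clustered protocadherins, olfactory and vomeronasal receptors and ribosomal proteins had none. No list held more than 8 members, and no difference between lists was tested.

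A subset of the members lay in repeated or crowded sequence. More than 50% of the bases were repeat-masked in 23 members, against 0 of 1510 acetylated peaks, and the mean repeat-masked share was 12.2% ± 21 (SD, n = 359 peaks) in members, 6.83% ± 7.69 (SD, n = 1510 peaks) in acetylated peaks, 48.4% in 56 peaks of *Chd7*-deficient GNPs on these chromosomes and 34.2% in genome windows. A local background above that of every acetylated peak (11 fragments) was found at 6 members. Of these, 3 held the highest −log10 q-values of all members, 40.7 in an exon of Zc3h7a (pileup 102), 34.8 in an intron of Filip1l (pileup 98) and 26.6 in the group on chromosome 17, where pileups of 308, 338 and 367 gave fold enrichments of 1.43, 2.06 and 1.6. The sixth, in an intron of Malrd1, had a pileup of 51 and a fold enrichment of 2.19. In 7 groups of 3 or more within 100 kb lay 26 members, with 7 beside Gm10354 and Gm17019 on chromosome 5 and others beside the zinc finger genes Zfp600, Zfp978 and Zfp709.
Within 100 kb of a peak of *Chd7*-deficient GNPs were 20 members, of which 17 met at least 1 of these 3 criteria, and 1 acetylated peak. The summit lay in an annotated pseudogene in 9 members (2.51%, 1.32 to 4.7%) and 9 acetylated peaks (0.596%, 0.314 to 1.13%). In all, 44 members met at least 1 criterion, which was defined after the values were seen. Without them, 315 members had a mean repeat-masked share of 6.91% and a median fold enrichment of 4.13. Their share at start sites was 27% and their share with Top2b of WT CGNs was 15.9%. Whether repeated sequence gave rise to any of the 44 peaks was not tested.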

How the data were processed

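Peak tables of 5 ChIP-seq libraries (Chd7 in WT and *Chd7*-deficient GNPs, H3K27ac in WT GNPs, Top2b in WT and *Chd7*-deficient CGNs) were analysed, with 1 library per condition. The input libraries were not analysed here. The authors trimmed reads with Trim Galore, mapped them to mm10 with Bowtie 1.0.0 and called peaks with MACS2 (Chd7, H3K27ac) or HOMER (Top2b), as the submitters' processing notes and the study's methods name them. The deposited signal is the fragment coverage (pileup) at each summit, and the other deposited columns are the fold enrichment over local background and the −log10 of p- and q-values. Decimal points of the last 3 were lost in the deposited tables. Division by 100000 put them back. Poisson p-values were computed anew from the pileup and a local background derived from the pileup and the restored fold enrichment. They differed from the restored p-values by at most 0.000221 (−log10 scale) for WT Chd7. The q-values had no such check. The Top2b files deposited by the authors give positions of fixed width and no score. The study's methods give a lower bound for mapped ChIP-seq reads but no total for each library, so the tables set no depth-based limit.

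Peaks were compared by overlap of 1 bp or more. Genes came from GENCODE M21 and bases, repeats and sequences from NCBI RefSeq's GRCm38 genome, the same assembly as mm10. Shares have 95% Wilson intervals and differences of shares 95% Newcombe intervals, and a count of 0 was read with a limit of 3 counts. Overlap, distance, motif and interval functions were tested on simulated data. The members and lists were chosen with earlier results of these data known. Members named are the 10 with the highest −log10 q-value, the 5 nearest to and the 5 farthest from H3K27ac, the 5 acetylated peaks of smallest overlap, the 10 highest with Top2b, the 10 highest at protein-coding start sites, and every member at a listed gene, and the text says where others were picked. The work ran in Python 3.11.15 with pysam 0.24.0 for sequences, pandas 2.3.3 for tables, numpy 2.4.6 for intervals and overlaps, scipy 1.17.1 for Poisson tails and matplotlib 3.10.9 for plots.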

Additional observations from a re-analysis of the deposited data

Results flagged for a closer look

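Outside chromosomes 1 to 19 and X, 11 of 46 WT Chd7 peaks overlapped no H3K27ac peak and no peak of *Chd7*-deficient GNPs, and they were left out of the members by the rule. They drew attention as Chd7 signal in data that the comparisons do not use. They lay on 7 unplaced scaffolds and none on the Y chromosome, with fold enrichments from 2.09 to 5.32 (median 4.04) and pileups from 13 to 86 (median 19). On the same sequences lay 40 of the 96 peaks of *Chd7*-deficient GNPs and 11 H3K27ac peaks.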

How the results depend on the processing

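No paired analysis was possible because each condition is 1 library. Of 67 alternative values, 49 stayed within the interval of the reported value, or on the same side of 0, or within 1.5 times the reported count. A minimum of 5 on −log10 q left 135 members, with a median fold enrichment of 4.98, a mean GC of 52.1% and 20.7% at start sites. Extending H3K27ac by 500 or 1000 bp left 326 or 325 members, and 514 were counted when only an overlap of 50% or more of the peak was taken as one. The share at start sites was 30.6% within 2 kb and 17.8% for protein-coding genes, for which 41.8% of members lay in a gene. Top2b of *Chd7*-deficient CGNs gave 26.7% in place of 15%. Over all 359 members, the motif shares in windows of 200 bp were 24.8% (NFI half-site), 19.5% (CAGCTG), 24.2% (CAGATG) and 10.9% (ZIC). With windows of 300 bp they were 32.6%, 27.6%, 33.4% and 16.7%. The shares of all acetylated peaks rose too, from 17.7%, 19.6%, 23.9% and 9.8% to 24%, 26.2%, 31.1% and 14.2%. The difference in the share with Top2b of WT CGNs was 6.69 points (1.93 to 10.9) with Top2b extended by 500 bp. The remaining alternatives were chosen after seeing the data. At start sites alone that difference was −0.34 points (−9.8 to 6.82), where its sign turned. The share with Top2b of WT CGNs was 11.1% in windows of 200 bp, mean GC 49.9% away from start sites, the repeat-masked share 6.91% without the 44 members in repeated or crowded sequence, and the difference for Top2b of *Chd7*-deficient CGNs 6.79 points (−3.64 to 16.2) in the lowest of 3 groups by fold enrichment. The causes were not tested. Without replicates, intervals cover counting error over peaks of single libraries, and unknown depth limits every absence of a peak, H3K27ac included.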
